A study of Homo sapiens with 8 samples.

Results

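Matrix metalloproteases (MMPs) and their tissue inhibitors (TIMPs) were followed in CAL-27 cells, an established human line from squamous cell carcinoma of head and neck, exposed to either of 2 inhibitors of protein kinase C. The family was taken as 10 genes, chosen by name: MMP1, MMP2, MMP7, MMP9, MMP10, MMP13, MMP14, TIMP1, TIMP2 and TIMP3. The choice was made with earlier results of these data known. These members are 10 of the 17921 genes named on the array, with 13 of its 41000 probes, and 9 of them were among the 12865 genes tested. The groups on 8 single-colour arrays were Go (n = 2), an inhibitor given under this name only and without its dose, enzastaurin at 10 µM (n = 3), and control (n = 3), whose vehicle is not stated. All cells were serum-starved for 24 h, and the treated cells then had the inhibitor for 24 h. A treatment time of 24 h is recorded for the control as well. Since the dose of Go is unknown, a difference between the inhibitors and a difference in effective dose cannot be told apart. Nothing states that replicates came from separate cultures, and the p-values then cover only the array-to-array spread, which may be technical.

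MMPs are zinc-dependent proteases that cut collagens, other matrix proteins and proteins on the cell surface. Most are secreted as inactive zymogens, some are held in the plasma membrane, and the TIMPs block their active sites. In squamous epithelium several of them are made mainly when cells migrate or invade, and phorbol esters, which activate protein kinase C, are known inducers of MMP1 transcription, in part through the transcription factor AP-1.

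On each array 52.1% to 57.3% of the probes lay above background, counted as a signal-to-noise score over 3, and 14 to 53 probes were saturated, none of them a member's. The root mean square difference between arrays over the genes was 0.351 (log2) for the Go pair, 0.119 to 0.162 within enzastaurin and 0.204 to 0.358 within control. The slide was inferred from mean spot positions. These placed control 1, 2 and 3 and Go 1 on slide 1, and Go 2 and enzastaurin 1, 2 and 3 on slide 2. Enzastaurin and control therefore shared no inferred slide, and a slide block in the fit links them only through the 2 Go arrays. Of the 9 keratinocyte markers on the array, 9 were above background on all 8 arrays, among them KRT5, KRT14 and TP63. Of 7 fibroblast markers none was above background on all 8 arrays, and PDGFRA and PDGFRB were above it on none. The endothelial genes KDR and PECAM1 and the leukocyte genes PTPRC and LYZ were above background on no array, whereas VWF, CD14, CD3E and CD68 were above it on all 8.

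Of the 10 members, 9 were above background on all 8 arrays. MMP2, a gelatinase that is typical of stromal cells, had its only probe above background on 0 arrays, with deposited intensities of 0.5 to 19, and was not tested. Further probes for MMP1, TIMP2 and TIMP3 were also above background on 0 arrays, so each tested member rests on 1 probe. In the values below, 1 unit is a doubling of the normalised intensity, and the offset added before the logarithm shrinks the folds of dim probes such as that of MMP9. Statements on overlap refer to this scale, and before normalisation some arrays stood in another order. Levels of different genes are not set against each other, since probes differ in brightness.

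MMP1 and MMP7 were the members that separated the inhibitors most: both were lower in Go than in enzastaurin cells, 2.58-fold and 2.93-fold. MMP10 was also lower in Go and TIMP2 was higher. Against control, MMP1 was lower in Go and did not pass the test in enzastaurin, while MMP7 was lower in Go and higher in enzastaurin. Between Go and enzastaurin 4 of the 9 tested members passed an adjusted p of 0.05 (limma, Benjamini-Hochberg over all genes tested), 1 higher and 3 lower, against 8.13% of all genes, 4.89% higher and 3.24% lower. The 4 include MMP1 and MMP7, which were singled out for this contrast, beside MMP10 and TIMP2. Counts of members for this contrast are therefore a description. A slide block left 5 of the 9 past the threshold, against 7.66% of all genes, and 4 passed in both fits, against 4.61%. For this contrast the slide block compares Go 2 alone with enzastaurin and equals the fit without Go 1, and for Go against control it equals the fit without Go 2. The arrays of Go and enzastaurin did not overlap for 6 of the 9, against 48.2% of all genes.

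MMP1, the interstitial collagenase that opens the triple helix of fibrillar collagen, had normalised log2 intensities of 9.98 and 10.02 in Go cells, 11.42, 11.31 and 11.38 in enzastaurin cells and 11.34, 11.30 and 10.86 in control cells. Both Go arrays lay below every other array, and the enzastaurin and control arrays overlapped, with control 3 the lowest of those. In the authors' background-subtracted intensities the same probe read 1403 and 1239 in Go, 3962, 4056 and 3630 in enzastaurin, and 2477, 2183 and 2230 in control. MMP1 differed by -1.37 (SE 0.14, adjusted p = 0.0017) for Go minus enzastaurin, the 11th largest fall among 12865 genes. The difference was -1.17 (SE 0.14, adjusted p = 0.00403) for Go minus control, a 2.25-fold lower level. For enzastaurin minus control it was 0.20, with a 95% interval of -0.08 to 0.49 and an adjusted p of 0.199. With each array scaled to its median in place of quantile normalisation, that difference was 0.54 and passed the test (adjusted p = 0.00226), and without control 3 it was 0.04 (adjusted p = 0.615).

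MMP7, matrilysin, is a small protease made by epithelial cells that also cuts cell-surface proteins. Its log2 intensity was 10.75 and 10.61 in Go cells, 12.34, 12.21 and 12.13 in enzastaurin cells and 11.36, 11.38 and 11.25 in control cells. The 3 groups did not overlap in any pair, with Go lowest, control between and enzastaurin highest. The authors' background-subtracted intensities of the probe were 1942 and 1427 in Go, 6205, 6519 and 4963 in enzastaurin, and 2171, 1896 and 2354 in control. On that scale, before normalisation, Go 1 lay within the control range. MMP7 differed by -1.55 (SE 0.0935, adjusted p = 0.00031) for Go minus enzastaurin, the 8th largest fall among 12865 genes. It differed by 0.90 (SE 0.0836, adjusted p = 0.000274) for enzastaurin minus control and by -0.65 (SE 0.0935, adjusted p = 0.00561) for Go minus control. Under the slide block these differences were -1.62, 1.04 and -0.58, with adjusted p-values of 0.00172, 0.0165 and 0.0253.

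The inferred slide could be held constant for 2 of the contrasts. On slide 1, Go 1 minus the mean of the controls was -1.19 for MMP1 and -0.58 for MMP7. On slide 2, Go 2 minus the mean of the enzastaurin arrays was -1.35 for MMP1 and -1.62 for MMP7. Each of these values has the sign of the pooled difference and rests on a single Go array. No inferred slide held both enzastaurin and control.

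**Figure D1:**
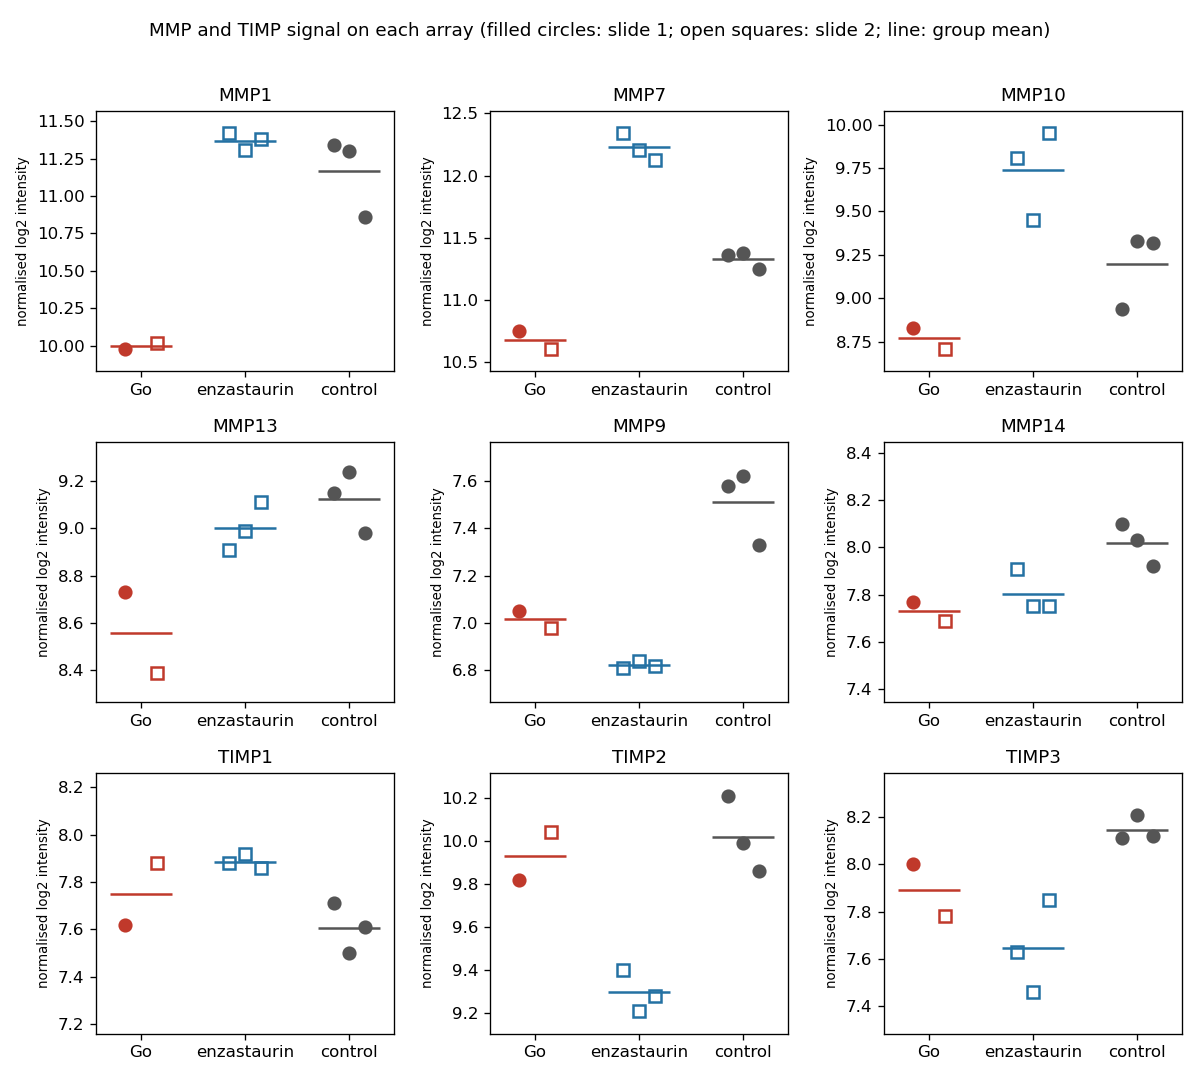
Normalised log2 intensity of the 9 tested members on each array, 1 panel per gene, with Go (n = 2), enzastaurin (n = 3) and control (n = 3) from left to right. Filled circles are arrays of slide 1, open squares arrays of slide 2 and bars the group means. MMP1 lies at 9.98 and 10.02 on the Go arrays and at 10.86 or more on the others, and MMP7 forms 3 separate levels.

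The promoters of MMP7 and MMP10 are shown because both genes lie in 1 run of MMP genes on chromosome 11 and differed between the inhibitors in the same direction. Each sequence is RefSeq's on GRCh38.p14, on the minus strand, 250 bases before to 50 after the gene's start. The reference table matched 5 of the 10 members. It lacked MMP1, MMP2, MMP9, MMP13 and TIMP2, so the MMP1 promoter was not searched. Capitals mark the AP-1 letters TGAGTCA, searched on both strands.
MMP7, chr11:102530698-102530997: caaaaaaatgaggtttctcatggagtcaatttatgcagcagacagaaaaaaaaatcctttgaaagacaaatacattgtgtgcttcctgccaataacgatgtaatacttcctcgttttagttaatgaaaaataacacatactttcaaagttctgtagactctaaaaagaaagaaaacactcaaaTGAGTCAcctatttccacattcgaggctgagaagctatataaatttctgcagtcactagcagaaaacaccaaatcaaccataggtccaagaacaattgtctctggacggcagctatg
MMP10, chr11:102780579-102780878: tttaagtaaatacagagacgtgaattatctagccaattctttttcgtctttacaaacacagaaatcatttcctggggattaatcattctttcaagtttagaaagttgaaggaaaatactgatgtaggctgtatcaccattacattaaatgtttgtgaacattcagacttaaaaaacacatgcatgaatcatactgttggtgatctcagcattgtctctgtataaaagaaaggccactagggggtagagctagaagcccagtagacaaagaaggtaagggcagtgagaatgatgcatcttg
The AP-1 letters begin at position -67 relative to the start of MMP7 and are not in the MMP10 window. They occur in 1738 of 35116 promoters of this length, or 4.95%. Among the 5 members matched, 1 held them. The ETS-type letters AGGAAG, also read on both strands, are in 33.6% of all promoters, and MMP7 has 2 copies, which do not overlap the AP-1 letters. TIMP1 has 1 copy, and MMP10, MMP14 and TIMP3 have none. A match describes letters and was not tested as a binding site.

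MMP10 and MMP13, the other members of that run, followed in part. MMP10, a stromelysin that cuts several matrix proteins and can activate other MMPs, had log2 intensities of 8.83 and 8.71 in Go cells, 9.81, 9.45 and 9.95 in enzastaurin cells and 8.94, 9.33 and 9.32 in control cells. The Go arrays were lowest and the enzastaurin arrays highest, with no overlap on this scale. In the authors' intensities, before normalisation, Go read 456 and 332 and control 347, 435 and 583, so Go 1 lay within the control range. MMP10 differed by -0.96 (SE 0.166, adjusted p = 0.013) for Go minus enzastaurin, but without enzastaurin 1 the difference of -0.93 had an adjusted p of 0.0625. The difference of 0.54 for enzastaurin minus control passed (SE 0.148, adjusted p = 0.0146). It was 0.82 with median scaling, and 0.65 with an adjusted p of 0.204 once the slide was a block, and it also missed the threshold without enzastaurin 1 (adjusted p = 0.0523) or enzastaurin 3 (adjusted p = 0.0577). For Go minus control it was -0.42, with an adjusted p of 0.0769.

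MMP13, a collagenase with wide substrate range, had log2 intensities of 8.73 and 8.39 in Go cells, 8.91, 8.99 and 9.11 in enzastaurin cells and 9.15, 9.24 and 8.98 in control cells. The Go arrays were lowest, and enzastaurin and control overlapped. MMP13 differed by -0.45 (SE 0.126, adjusted p = 0.0657) for Go minus enzastaurin, which passed with the slide as a block (-0.62, adjusted p = 0.0303), with median scaling (-0.58, adjusted p = 0.0311) or without control 3 (adjusted p = 0.0471). The difference of -0.56 for Go minus control passed (adjusted p = 0.0159), but with the slide as a block or without Go 2 it was -0.39 with an adjusted p of 0.0954. Without control 2 it was -0.51 with an adjusted p of 0.0599. For enzastaurin minus control the difference was -0.12 (adjusted p = 0.393), and its sign turned with the slide as a block (0.23) or with median scaling (0.15).

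MMP9, a gelatinase that cuts denatured collagen and basement membrane collagen, was below control with both inhibitors. Its log2 intensity was 7.05 and 6.98 in Go cells, 6.81, 6.84 and 6.82 in enzastaurin cells and 7.58, 7.62 and 7.33 in control cells. All 5 inhibitor arrays lay below all 3 controls on this scale. In the authors' intensities, before normalisation, Go read 102 and 55 and control 92, 105 and 109, so Go 1 lay within the control range. MMP9 differed by -0.69 (SE 0.0881, adjusted p = 0.000598) for enzastaurin minus control and by -0.50 (SE 0.0985, adjusted p = 0.0123) for Go minus control. With the authors' values put on a log2 scale and quantile normalised, the first of these was -1.18. Under the slide block the differences were -0.62 and -0.46, with adjusted p-values of 0.0781 and 0.063. The second also missed the threshold without control 2 (adjusted p = 0.0506) or Go 2 (adjusted p = 0.063). Go minus enzastaurin was 0.19, with a 95% interval of -0.03 to 0.42 and an adjusted p of 0.254.

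MMP14, the membrane-anchored collagenase that activates the zymogen of MMP2, differed by no more than 0.29 in any contrast. It read 7.77 and 7.69 in Go cells, 7.91, 7.75 and 7.75 in enzastaurin cells and 8.10, 8.03 and 7.92 in control cells. The control arrays were highest, and the inhibitor groups overlapped. The difference of -0.29 for Go minus control passed (SE 0.0913, adjusted p = 0.0428) and did so in 6 of 16 alternative settings. With the slide as a block, or without Go 2, it was -0.24 with an adjusted p of 0.18, and with median scaling -0.19 with an adjusted p of 0.215. The call was also lost without control 1 or 2 (adjusted p = 0.103 and 0.113) or enzastaurin 1, 2 or 3 (adjusted p = 0.0593, 0.0712 and 0.0652). Enzastaurin minus control was -0.22 with an adjusted p of 0.0506. It passed in 10 of 16 alternatives, among them those without control 3, enzastaurin 1, Go 1 or Go 2 (adjusted p = 0.0265, 0.0476, 0.0452 and 0.0452). Go minus enzastaurin was -0.07, with a 95% interval of -0.28 to 0.14 and an adjusted p of 0.651.

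The inhibitors of the family differed among themselves. TIMP2, which blocks MMPs and also takes part in the activation of MMP2 by MMP14, read 9.82 and 10.04 in Go cells, 9.40, 9.21 and 9.28 in enzastaurin cells and 10.21, 9.99 and 9.86 in control cells. The enzastaurin arrays were lowest on this scale, and Go and control overlapped. Before normalisation the authors' intensities were 945 and 946 in Go, 730, 729 and 625 in enzastaurin, and 915, 694 and 913 in control. There control 2 lay within the enzastaurin range, and both Go arrays lay above the controls. TIMP2 differed by -0.72 (SE 0.109, adjusted p = 0.00111) for enzastaurin minus control, by -0.95 (adjusted p = 0.0445) with the slide as a block, and by -0.43 (adjusted p = 0.00721) with median scaling. It differed by 0.63 (SE 0.122, adjusted p = 0.019) for Go minus enzastaurin. That call was lost without enzastaurin 1, 2 or 3 or Go 2, with adjusted p-values of 0.0589, 0.0835, 0.07 and 0.0508. Go minus control was -0.09 (adjusted p = 0.587), and its sign turned with median scaling (0.07), without control 1 (0.01) or without Go 1 (0.03).

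TIMP1, a secreted inhibitor that many cells make in response to growth factors, read 7.62 and 7.88 in Go cells, 7.88, 7.92 and 7.86 in enzastaurin cells and 7.71, 7.50 and 7.61 in control cells. Enzastaurin arrays lay above the controls, and the Go arrays overlapped both other groups. The difference of 0.28 for enzastaurin minus control passed (SE 0.0909, adjusted p = 0.0306) and was 0.02 with the slide as a block (adjusted p = 0.951) and 0.45 with median scaling (adjusted p = 0.00534). It passed in 9 of 16 alternatives, and missed the threshold without control 2 (adjusted p = 0.115) and without enzastaurin 1, 2 or 3 (adjusted p = 0.0791, 0.0947 and 0.0666). Go minus enzastaurin was -0.13 (adjusted p = 0.445) and Go minus control 0.14 (adjusted p = 0.283).

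TIMP3, the inhibitor that stays bound to the matrix, read 8.0 and 7.78 in Go cells, 7.63, 7.46 and 7.85 in enzastaurin cells and 8.11, 8.21 and 8.12 in control cells. The controls were highest, and the inhibitor groups overlapped. The difference of -0.50 for enzastaurin minus control passed (SE 0.108, adjusted p = 0.0052), but not with the slide as a block (-0.28, adjusted p = 0.381) or median scaling (-0.30, adjusted p = 0.0587). Go minus enzastaurin was 0.24 (adjusted p = 0.247) and Go minus control -0.26 (adjusted p = 0.129).

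Counted over the family, enzastaurin differed from control in 6 of the 9 tested members, 3 higher (MMP7, MMP10 and TIMP1) and 3 lower (MMP9, TIMP2 and TIMP3), against 55.1% of all genes, 18.2% higher and 36.9% lower. That share is near the background. Under the slide block 2 members (MMP7 and TIMP2) passed, against 4.21% of all genes, and the same 2 passed in both fits, against 3.2%. Go differed from control in 5 of the 9, all lower (MMP1, MMP7, MMP9, MMP13 and MMP14), against 31.9% of all genes, with 11.7% higher and 20.2% lower. Under the slide block 2 members (MMP1 and MMP7) passed, against 6.37% of all genes, and the same 2 passed in both fits, against 5.55%. Arrays did not overlap for 7 of the 9 members between enzastaurin and control, against 68.9% of all genes, and for 7 of the 9 between Go and control, against 57.5%. The members' median difference was -0.13 for Go minus enzastaurin, -0.12 for enzastaurin minus control and -0.42 for Go minus control, and the medians over all genes were 0.033, -0.134 and -0.101. Scaling each array to its median put the medians of all genes at -0.055, 0.064 and -0.003. The 2 contrasts with enzastaurin share its arrays, and the 2 with control share the controls.

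**Figure D2:**
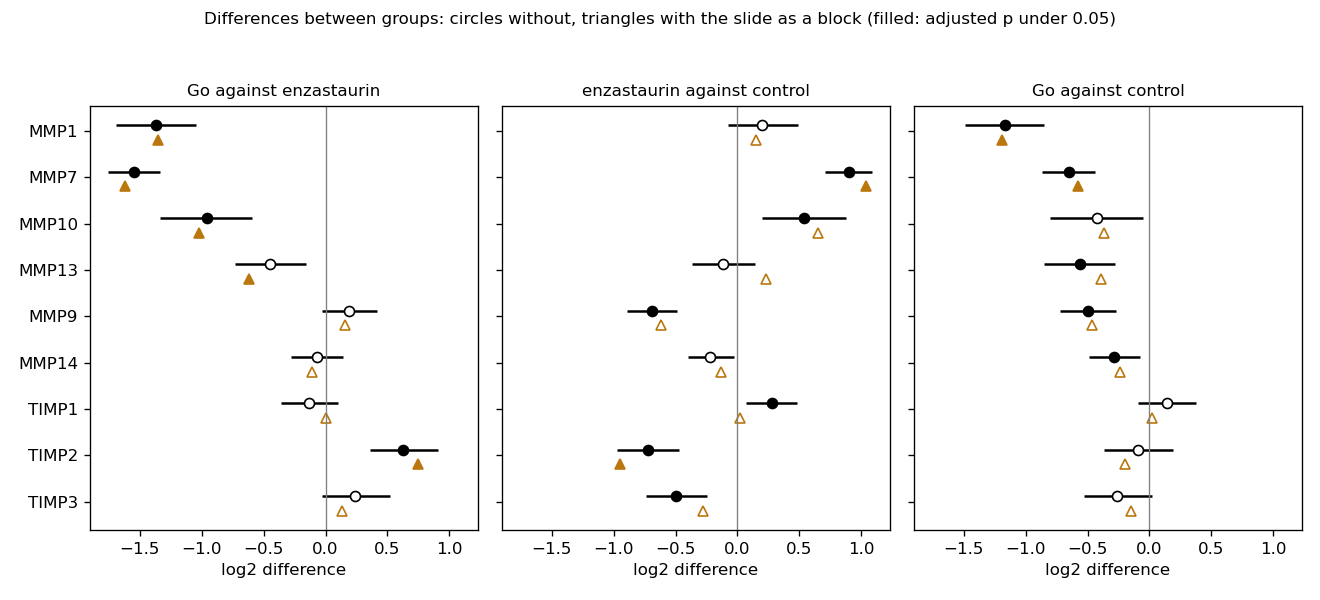
Log2 differences of the 9 tested members for Go minus enzastaurin, enzastaurin minus control and Go minus control, as circles with 95% intervals, and under the slide block as triangles. Filled markers have an adjusted p under 0.05, open markers do not. MMP7 lies at -1.55, 0.90 and -0.65 and MMP1 at -1.37, 0.20 and -1.17, while MMP14 lies at -0.07, -0.22 and -0.29.

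Set against the rest of the family, MMP1 and MMP7 stood apart on each array as follows. From each gene's log2 value, centred on its mean over the 8 arrays, the median of the other 7 tested members on that array was subtracted. MMP1 then read -0.88 and -0.78 in Go, 0.49, 0.47 and 0.48 in enzastaurin, and 0.17, 0.09 and -0.15 in control. MMP7 read -0.66 and -0.75 in Go, 0.86, 0.83 and 0.68 in enzastaurin, and -0.36, -0.39 and -0.31 in control. For both genes the Go arrays were lowest and the enzastaurin arrays highest, without overlap. For MMP1 the gap between enzastaurin and control appeared only after the subtraction, since its own arrays overlapped in those 2 groups. The subtracted median of the rest was 0.22, 0.26 and 0.06 in control and -0.03, -0.12 and -0.05 in enzastaurin. These values are a description, since both genes were singled out for this contrast.

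**Figure D3:**
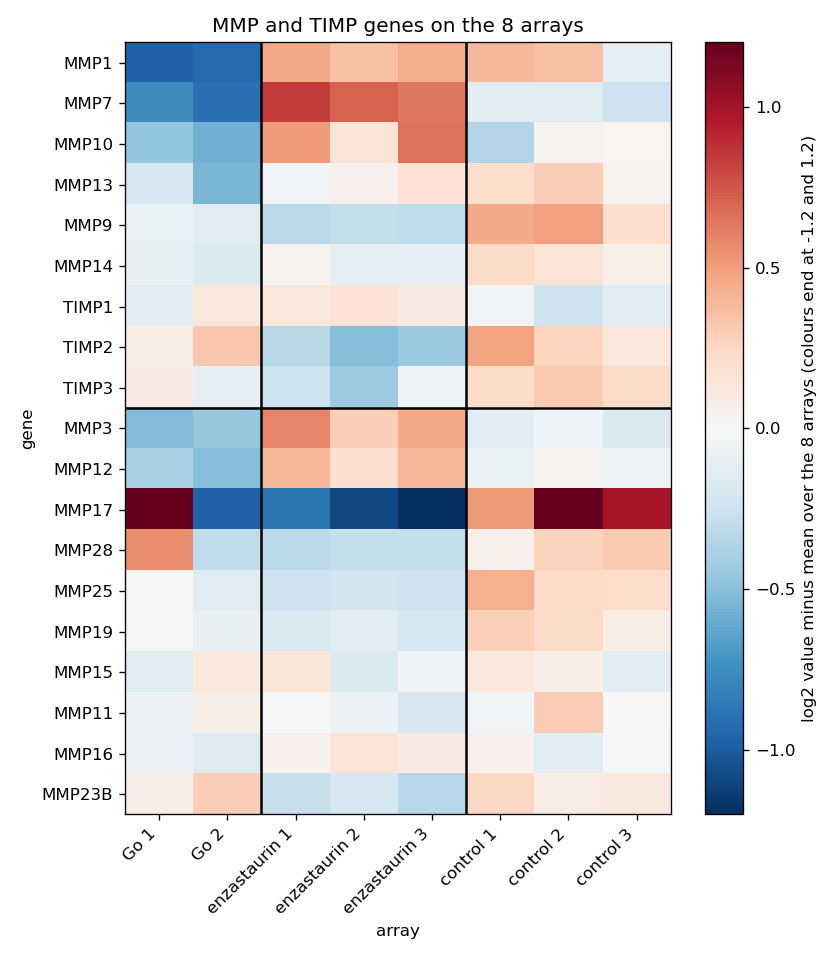
Log2 values of the 9 tested members (above the horizontal line) and of 10 other MMP genes on the 8 arrays, each centred on its mean over the arrays, with Go, enzastaurin and control from left to right. MMP1 and MMP7 are lowest on both Go arrays, TIMP2 is lowest on the enzastaurin arrays, and MMP17 is high on Go 1 and the controls; colours end at -1.2 and 1.2.

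The other MMP and TIMP genes on the array numbered 17, with 25 probes. Of these 7 (MMP8, MMP20, MMP21, MMP24, MMP26, MMP27 and TIMP4) were above background on no array, and 10 were tested, of which 1 was higher and 2 lower in Go than in enzastaurin, against 8.13% of all genes called. In enzastaurin 2 were higher and 5 lower than in control, against 55.1% of all genes called, and in Go 3 were lower than in control, against 31.9%. MMP3, a stromelysin, read 6.75 and 6.81 in Go cells, 7.85, 7.56 and 7.72 in enzastaurin cells and 7.14, 7.22 and 7.09 in control cells, with no overlap between the groups. MMP12, the elastase known from macrophages, read 6.71 and 6.59 in Go cells, 7.50, 7.30 and 7.50 in enzastaurin cells and 7.02, 7.13 and 7.04 in control cells, again with no overlap. Go minus enzastaurin was -0.93 for MMP3 (adjusted p = 0.00185) and -0.78 for MMP12 (adjusted p = 0.00308). Enzastaurin minus control was 0.56 for MMP3 and 0.37 for MMP12, with adjusted p-values of 0.00127 and 0.00601. Go minus control was -0.37 for MMP3 and -0.41 for MMP12, with adjusted p-values of 0.0241 and 0.0167. In the fit with the slide block the differences from control had adjusted p-values of 0.118 and 0.1 for enzastaurin and 0.0855 and 0.0931 for Go. The MMP3 call against control in Go was also lost without control 1 or 2 or Go 1 (adjusted p = 0.0536, 0.0821 and 0.0575), and that of MMP12 without control 2 (adjusted p = 0.0622). In enzastaurin the MMP12 difference was 0.20 with scaling to the 75th percentile (adjusted p = 0.125). With the authors' values put on a log2 scale and quantile normalised, Go minus enzastaurin was -1.63 for MMP3 and -1.49 for MMP12. MMP3 was above background on 6 of the 8 arrays.

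MMP17, a protease held by a membrane anchor, and MMP28, an epithelial MMP, followed the inferred slide. MMP17 read 11.94 on Go 1 and 9.70 on Go 2, 9.80, 9.59 and 9.46 in enzastaurin cells and 11.18, 12.05 and 11.66 in control cells. MMP28 read 8.76 on Go 1 and 7.90 on Go 2, 7.88, 7.92 and 7.92 in enzastaurin cells and 8.27, 8.48 and 8.52 in control cells. For both genes every array of slide 1 lay above every array of slide 2, whatever the treatment. Enzastaurin minus control was -2.01 for MMP17 and -0.52 for MMP28 (adjusted p = 0.00783 and 0.0426), and 0.23 and 0.34 with the slide as a block. For MMP28 it was -0.13 with the mean of its probes (adjusted p = 0.321). Also lower in enzastaurin than in control were MMP19 (-0.37, adjusted p = 0.00445), MMP25 (-0.54, adjusted p = 0.00122) and MMP23B (-0.42, adjusted p = 0.00436). MMP23B was above background on 2 of 3 control arrays and on 0 of 3 enzastaurin arrays. MMP19 was at -0.14 with no filter on dim probes (adjusted p = 0.527), and the mean of the 2 MMP25 probes differed by -0.10 (adjusted p = 0.165). None of these 10 genes passed both with and without the slide block for enzastaurin against control or for Go against control. MMP25 was also lower in Go than in control (-0.36, adjusted p = 0.0223), while the mean of its 2 probes differed by 0.01. MMP23B passed for Go against enzastaurin with no array of either group above background, so no fold is given.

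In the annotation of chromosome 11, 9 protein-coding MMP genes follow each other with no other protein-coding gene between: MMP7, MMP20, MMP27, MMP8, MMP10, MMP1, MMP3, MMP12 and MMP13. Of these 6 were tested, and this grouping was made after their values were seen. Go was below enzastaurin in 5 of the 6, the exception being MMP13, against 3.24% of all genes lower. Enzastaurin was above control in 4 (MMP7, MMP10, MMP3 and MMP12), against 18.2% of all genes higher, and MMP1 and MMP13 did not pass. Of these 4, MMP7 alone passed under the slide block. Go was below control in 5, against 20.2% of all genes lower, and MMP10 did not pass. With that block MMP1 and MMP7 passed, and MMP3, MMP12 and MMP13 did not (adjusted p = 0.0855, 0.0931 and 0.0954). Of the 13 tested MMP and TIMP genes elsewhere, 2 were higher and 0 lower in Go than in enzastaurin, with differences of -0.21 to 1.2. The 2 were TIMP2 and MMP23B, of which MMP23B was below background in both groups. For enzastaurin against control the 13 held 8 lower and 1 higher, against 36.9% of all genes lower and 18.2% higher. Of these 9 calls that of TIMP2 held under the slide block as well. For Go against control the 13 held 3 lower and 0 higher, with differences of -0.81 to 0.14, against 20.2% of all genes lower and 11.7% higher.

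**Figure D4:**
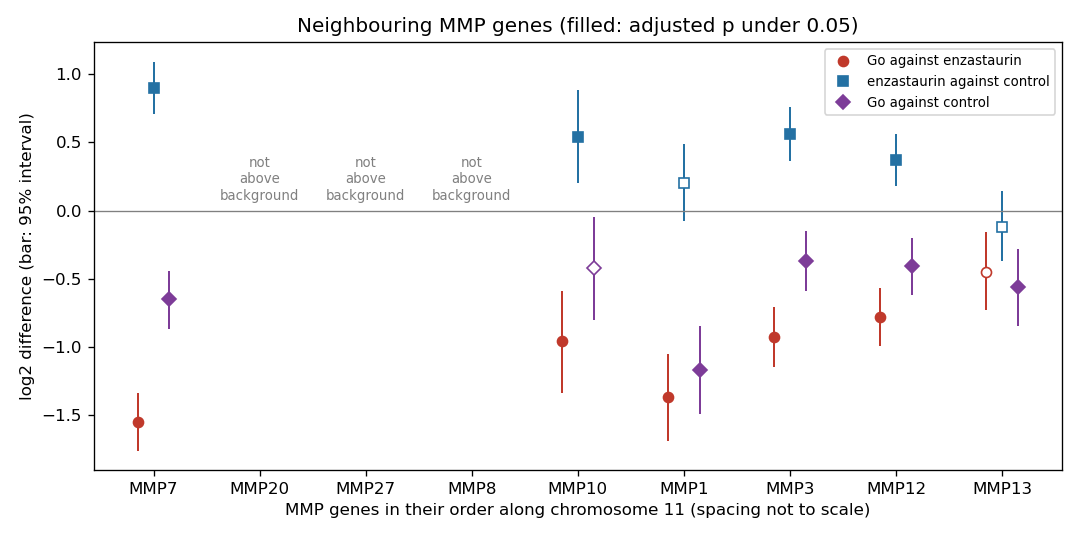
Log2 differences with 95% intervals of the 6 tested genes among the 9 of the chromosome 11 run, in gene order, with filled markers for an adjusted p under 0.05. Go minus enzastaurin lies below 0 for all 6 genes of the run, from -1.55 for MMP7 to -0.45 for MMP13, of which 5 passed, and enzastaurin minus control is above 0 for the 4 genes that passed, of which MMP7 held under the slide block.

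Among the proteases and inhibitors that act on MMPs, 17 of 21 listed genes were tested. Go against enzastaurin gave 1 higher and 3 lower, against 8.13% of all genes called. SERPINE2, an inhibitor of plasminogen activators and thrombin, averaged 7.77 in Go and 8.71 in enzastaurin cells (-0.94, adjusted p = 0.00127). PLAT, the tissue plasminogen activator, averaged 12.25 in Go and 13.00 in enzastaurin cells (-0.75, adjusted p = 0.00589). CD44, a hyaluronan receptor that can hold MMPs at the cell surface, differed by -0.40 (adjusted p = 0.0287), a call lost under the slide block (adjusted p = 0.0642), without control 2 (0.0539) and without enzastaurin 1, 2 or 3 (0.116, 0.0791 and 0.0966). THBS1, thrombospondin, a matrix protein that can restrain MMP activity, averaged 11.89 in Go and 11.02 in enzastaurin cells (0.87, adjusted p = 0.00331, or 0.57 with the mean of its probes). Enzastaurin against control gave 4 higher and 8 lower of the 17, a share not far from the 55.1% of all genes called. PLAT was higher (0.58), and PLAU, the urokinase, THBS1 and THBS2 were lower (-0.76, -0.76 and -0.67). Of the 12, PLAT alone passed both with and without the slide block, under which PLAU was at -0.33, THBS1 at -0.61 and THBS2 at -0.02 (adjusted p = 0.221, 0.0914 and 0.911). With the mean of its probes THBS1 was at -0.26 (adjusted p = 0.0619). Go against control gave 1 higher and 3 lower, against 31.9% of all genes called, none of which passed both ways. PLAUR, the urokinase receptor, SERPINE2 and SERPINB2 were lower (-0.72, -0.45 and -0.28, or -0.44, -0.41 and -0.26 under the slide block), and FURIN, which processes zymogens, was higher with no array of either group above background.

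Of 18 genes for ADAM, ADAMTS and astacin proteases, which belong to the same wider family of metalloproteases, 11 were tested. Go was lower than enzastaurin in 2, against 8.13% of all genes called. TLL2, an astacin-type protease, averaged 7.39 in Go and 9.14 in enzastaurin cells (-1.75, adjusted p = 0.000201), and ADAM8 averaged 11.42 in Go and 12.12 in enzastaurin cells (-0.70, adjusted p = 0.00895). TLL2 was also 0.97 higher in enzastaurin than in control and fell by 0.78 in Go against control. Enzastaurin against control gave 2 higher and 3 lower of the 11, against 55.1% of all genes called. BMP1, a procollagen protease, and ADAM28 were lower (-0.67 and -0.35), and ADAMTS1 was higher (0.31) but at -0.01 with the mean of its probes. Under the slide block BMP1 was at -0.25, ADAM28 at -0.14 and ADAMTS1 at 0.39, and none of these passed (adjusted p = 0.44, 0.477 and 0.225). Go against control gave 5 lower and 0 higher, against 31.9% of all genes called, among them BMP1 (-0.59), ADAM12 (-0.50) and ADAM8 (-0.48). These 3 calls were lost under the slide block (adjusted p = 0.13, 0.0619 and 0.102). TLL2 was in both contrasts with control the 1 gene of the list that passed in both fits.

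Of 26 listed regulators of MMP transcription 23 were tested. Go against enzastaurin gave 4 higher and 1 lower, against 8.13% of all genes called. JDP2, a repressor that binds AP-1 and related sites, averaged 11.23 in Go and 9.63 in enzastaurin cells (1.60, adjusted p = 0.000556). EHF and RUNX1 were higher (0.58 and 0.39) and TCF7 was lower (-0.59). EHF passed in 8 and RUNX1 in 7 of 16 alternatives. Without enzastaurin 1, 2 or 3 the adjusted p was 0.136, 0.114 and 0.127 for EHF and 0.0979, 0.124 and 0.104 for RUNX1. Both were also lost without control 2 (0.0521 and 0.0647) or Go 2 (0.124 and 0.076). The AP-1 subunits FOS, FOSB, FOSL1, FOSL2, JUN, JUNB and JUND did not pass in this contrast. Their differences were 0.22, 0.27, -0.30, -0.21, -0.38, -0.45 and -0.48. Enzastaurin against control gave 7 higher and 7 lower, against 55.1% of all genes called, with JUNB at 1.43, JUND at 0.92, CTNNB1 (beta-catenin) at 0.90 and JDP2 at -1.12. JUNB and JDP2 were the 2 of these genes that passed in both fits, and under the slide block JUNB was at 0.82, JUND at 0.14 and CTNNB1 at 0.48. Go against control gave 6 higher and 6 lower, against 31.9% of all genes called, with JUNB at 0.98, CTNNB1 at 0.91, ATF3 at 0.87 and JUN at -0.60, and 6 of the 12 passed both ways. With the mean of probes JUNB, CTNNB1 and ATF3 were at 0.42, 0.27 and 0.47.

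Of 22 matrix and cell-surface substrates 17 were tested. Go against enzastaurin gave 4 lower and 0 higher, against 8.13% of all genes called. TNC (tenascin C) averaged 11.75 in Go and 12.56 in enzastaurin cells (-0.82, adjusted p = 0.00734). FN1 (fibronectin) differed by -0.72 and COL7A1, the collagen of anchoring fibrils, by -0.61. COL17A1, the hemidesmosomal collagen, differed by -0.50 (adjusted p = 0.0308), which was 0.0876 with the slide as a block. Without enzastaurin 1, 2 or 3 the adjusted p was 0.11, 0.0952 and 0.0765 for FN1 and 0.108, 0.0691 and 0.103 for COL17A1. FN1 was also lost without control 2 (0.0612) or Go 2 (0.0798), and COL7A1 without enzastaurin 1 or 2 (0.0618 and 0.058). Enzastaurin against control gave 8 higher and 4 lower, against 55.1% of all genes called, with COL17A1 at 1.39, COL4A5 at 1.21, FN1 at 0.85 and ELN (elastin) at -1.14, and 2 of the 12 passed both ways. With a block for slide, ELN was at -0.26 (adjusted p = 0.293), COL4A5 at 1.25 (0.169) and FN1 at 1.1 (0.0618). Go against control gave 2 higher and 4 lower, against 31.9% of all genes called, with COL17A1 at 0.89, COL4A5 at 0.87 and COL7A1 at -0.60, and 2 of the 6 passed both ways. COL4A5 passed in 5 of 16 alternatives, with an adjusted p of 0.149 under the slide block and a difference of 0.57 without control 1. With the mean of probes COL17A1 was at 0.30 and COL4A5 at 0.36. The medians of the 4 lists for Go minus enzastaurin were 0.06 for activators and inhibitors, -0.17 for ADAM-type proteases, 0.01 for regulators and -0.26 for substrates, beside 0.033 over all genes.

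The genes most like MMP1 and MMP7 were ranked by the root mean square difference of centred log2 values over the 8 arrays, among the other 12864 genes tested. For MMP1 these were PRXL2A (0.201), DEFB103B (0.219), RAB27A (0.246), SH2D5 (0.248) and SPRR1A (0.251), while MMP1 itself varied about its mean by 0.573. DEFB103B has a near-identical copy, so its name is uncertain. For MMP7 they were TLL2 (0.144), LYRM1 (0.174), TENT5A (0.196), CSF1R (0.232) and LPCAT1 (0.237), against 0.62 for MMP7 itself. MMP1 and MMP7 differed from each other by 0.333, which placed MMP1 36th among the genes most like MMP7. The 5 genes like MMP1 differed by -0.12 to 0.28 for enzastaurin minus control, and the 5 like MMP7 by 0.57 to 1.15. These ranges follow from the choice of the genes by likeness on the same arrays and are no separate result. All these arrays share the slide layout given above.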

How the data were processed

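Total RNA of CAL-27 cells was labelled with Cy3 and hybridised to 8 single-colour arrays, per the labels. The scanner tables hold raw foreground and background intensity, and for each spot a score of signal over noise and a percent of pixels at saturation, per the file headers. The deposited value table holds background-subtracted intensity with a floor of 0.5 and no normalisation, by comparison with the scanner tables. The channel is named for another wavelength than that of the dye. The gene annotation in the scanner tables is in reverse order to the spots and was turned round: the rank correlation with the authors' table across probes was 0.0072 to 0.013 as deposited and 0.9904 to 0.9937 after.

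Intensities were corrected with normexp (offset 50), put on a log2 scale and quantile normalised (R 4.3.3, limma 3.58.1). The authors' deposited values are not on a log2 scale. For the alternative that uses their value table they were put on that scale and quantile normalised. Spots of a probe were averaged, probes with a score over 3 on at least 2 arrays were kept, and a gene was read from its brightest probe by mean. Of 41000 probes 23434 were named by accession, 2317 by symbol, 1038 by an older symbol and 507 by the file's own name, and 13704 have no name here. Limma was fitted over 3 groups (5 residual and 3.66 prior degrees of freedom), with p-values adjusted by Benjamini-Hochberg over 12865 genes at 0.05. The slide was inferred from mean spot positions, 10930.1 to 10951 µm for slide 1 and 10897.1 to 10904.5 µm for slide 2. The arrays were split at the widest gap in position. Within slide 1, Go 1 lay at 10930.1 µm and the controls at 10941.8 to 10951 µm. The number of arrays limits the precision. On simulated data for Go against enzastaurin (12865 genes, 200 changed) the fit recovered 44.4%, 90.6% and 98.8% of log2 changes of 0.5, 1 and 2, and 5.55% of calls were false. The simulated noise was independent and normal, with 1 spread per gene and no slide effect. These shares therefore do not give the false share among the calls reported above.

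Where no array of a group had a probe above background, this is stated beside the result. No fold is given where this held for both groups. Named were all members, every called gene of the other MMPs and TIMPs, up to 4 called genes per list and comparison with the largest change, and the 5 genes most like MMP1 and MMP7. The members, lists and rules were chosen with earlier results of these data known. Genes named outside that rule, such as FOS, were added after their values were seen. The values of 1 gene that the rule names are not reported here.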

Additional observations from a re-analysis of the deposited data

How the results depend on the processing

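Across 16 alternatives (replicate or slide block, background correction, scaling, filter on dim probes, several probes, the authors' value table, and each array left out), MMP1 and MMP7 passed in 16 of 16 between Go and enzastaurin and between Go and control, as did MMP7 and TIMP2 between enzastaurin and control. The slide block repeats the fit without Go 1 for Go against enzastaurin and that without Go 2 for Go against control, so each such pair of settings is 1 fit. Against control, the slide block left 2 members called in enzastaurin and 2 in Go. Leaving out 1 array gave 2 to 5 members for Go against enzastaurin, 4 to 7 for enzastaurin against control and 2 to 5 for Go against control, with 2 without enzastaurin 1 in the first and 2 without control 2 or Go 2 in the last. Signs turned for enzastaurin against control in MMP13 (0.23 with the slide block, 0.15 with median scaling), MMP17 (0.23) and MMP28 (0.34 with the slide block) and ADAMTS1 (-0.01 with the mean of probes). For Go against control they turned in TIMP2 (0.07 with median scaling, 0.01 without control 1, 0.03 without Go 1, and -0.20 to 0.03 over the arrays left out) and MMP25 (0.01 with the mean of probes). The cause was not tested.

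The correlations of same-numbered deviations from the group means were -0.15 to 0.149. They cannot settle whether replicate numbers pair the arrays. The deviations of the 2 Go arrays mirror each other and also hold the difference between the inferred slides. With a replicate block 3, 6 and 5 members were called for Go against enzastaurin, enzastaurin against control and Go against control, with TIMP2 lost in the first (adjusted p = 0.0565), TIMP1 lost (0.0545) and MMP14 gained (0.0423) in the second, and 520 genes in all passed in the first contrast, against 1046 without it. Over all genes, 541 passed with the slide block for enzastaurin against control, against 7087 without, and 820 against 4107 for Go against control. With median scaling 2380 genes passed for Go against control, 1653 of them higher, against 1510 of 4107. It gave 3598 higher of 5779 for enzastaurin against control, against 2346 of 7087, and 258 of 810 for Go against enzastaurin, against 629 of 1046. Leaving out 1 array gave 245 to 1701 genes for Go against enzastaurin and 820 to 5580 for Go against control. Differences of dim probes are limited by signal over background.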
